A study of Caenorhabditis elegans with 2 samples.

Results

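Of the 5944 summits in the thresholded peak list for LSY-2, 1714 lay upstream of 1 protein-coding gene and not between a pair of diverging genes. A summit, the position of highest enrichment in a peak, belonged to this class if it lay inside no protein-coding gene and 1 to 1000 bp upstream of the 5′ end of a gene on 1 strand. No gene on the other strand could have its 5′ end within 1000 bp on the far side. Within the list the rule used position only, not signal, sequence or gene function. The list itself had been thresholded on agreement between the replicates, so signal and replicate values are not independent of being in it. The 1714 summits made up 28.8% of the list (exact 95% interval 27.7 to 30.01, which covers counting error only), beside 739 between divergent 5′ ends, 2036 inside genes and 1455 elsewhere between genes.

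LSY-2 was profiled by chromatin immunoprecipitation and sequencing in whole L4 larvae of Caenorhabditis elegans, from 1 group of 2 biological replicates. The animals were of strain OP367, of mixed sex, with the genotype unc-119(tm4063) III; wgIs367, the latter a transgene that produces LSY-2 fused at its C-terminus to GFP and FLAG. The promoter that drives the transgene is not given in the labels, and both replicates carry the same allele and transgene, so there was no second condition to test against. The control experiment was not analysed here. Sequencing depth is unknown, because peak lists carry no reads, and whole animals mix all tissues, so a summit cannot be placed in a cell type.

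LSY-2 is a zinc finger protein known for making the left and right ASE taste neurons differ. In the compact worm genome most promoters sit just upstream of the first exon, and many are shared by genes that point away from each other. A promoter with 1 gene downstream has, on its far side, either the 3′ end of another gene or the 5′ end of a gene too far away to count. Many worm messenger RNAs receive a short spliced leader at their 5′ end, so that the annotated gene start can be a splice acceptor rather than the place where transcription begins.

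Sequences at the summits are shown first, because short words recurred there. Each is the 100 bp at a summit, read 5′ to 3′ on the strand of the downstream gene from the WBcel235 (ce11) genome. Capitals mark AGACGCAG, GAGAGA and GACGCA on either strand, the reverse complements of which are CTGCGTCT for the first, TCTCTC for the second and TGCGTC for the third. The last word, GACGCA, lies within AGACGCAG, and GAGAGA can overlap that, as in spat-2. The first 6 windows are from the strongest summits with AGACGCAG among 1397 of the 1714 members, a set given with the processing. They lie upstream of sec-24.1, a COPII coat component (IV:11566293-11566392, minus strand), umps-1, which encodes an enzyme of uridine monophosphate synthesis (III:10357931-10358030, minus), T14G11.1 (X:2688671-2688770, plus), spat-2 (III:11036243-11036342, plus), sec-61.G, a subunit of the protein translocon (V:10897321-10897420, minus) and Y39B6A.43 (V:18967800-18967899, minus).
sec-24.1: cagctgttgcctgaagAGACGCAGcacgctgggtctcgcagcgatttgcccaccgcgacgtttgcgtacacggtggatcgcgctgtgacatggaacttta
umps-1: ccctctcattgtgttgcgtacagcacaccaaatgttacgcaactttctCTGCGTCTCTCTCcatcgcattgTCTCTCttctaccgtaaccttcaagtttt
T14G11.1: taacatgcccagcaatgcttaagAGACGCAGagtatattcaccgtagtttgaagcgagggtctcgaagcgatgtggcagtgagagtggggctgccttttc
spat-2: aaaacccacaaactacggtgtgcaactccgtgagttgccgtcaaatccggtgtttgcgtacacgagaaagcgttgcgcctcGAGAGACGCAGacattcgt
sec-61.G: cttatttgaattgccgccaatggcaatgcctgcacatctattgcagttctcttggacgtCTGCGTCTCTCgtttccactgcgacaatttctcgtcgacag
Y39B6A.43: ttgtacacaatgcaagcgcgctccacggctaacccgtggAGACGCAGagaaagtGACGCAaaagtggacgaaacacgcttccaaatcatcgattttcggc

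The next 4 windows are from the strongest summits with GAGAGA and without AGACGCAG, upstream of lin-9, a DREAM complex subunit (III:8904253-8904352, minus), unc-16, a scaffold for axonal transport (III:9546104-9546203, plus), rpl-29 (IV:13881910-13882009, plus) and Y82E9BR.3 (III:1418841-1418940, plus). The last 2 belong to the strongest members of all, upstream of rpl-3 (III:3867521-3867620, plus) and cox-5A (III:12905140-12905239, plus), and hold neither of those words but do hold GACGCA.
lin-9: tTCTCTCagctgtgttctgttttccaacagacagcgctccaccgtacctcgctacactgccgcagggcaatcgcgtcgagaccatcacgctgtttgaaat
unc-16: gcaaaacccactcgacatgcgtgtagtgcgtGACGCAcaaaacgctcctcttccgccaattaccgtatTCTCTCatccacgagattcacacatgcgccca
rpl-29: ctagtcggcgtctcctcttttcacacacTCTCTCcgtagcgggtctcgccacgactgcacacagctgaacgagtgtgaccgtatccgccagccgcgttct
Y82E9BR.3: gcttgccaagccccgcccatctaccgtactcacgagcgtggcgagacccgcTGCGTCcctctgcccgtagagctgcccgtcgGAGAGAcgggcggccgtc
rpl-3: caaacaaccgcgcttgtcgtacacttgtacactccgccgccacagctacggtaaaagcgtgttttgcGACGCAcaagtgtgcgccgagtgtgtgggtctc
cox-5A: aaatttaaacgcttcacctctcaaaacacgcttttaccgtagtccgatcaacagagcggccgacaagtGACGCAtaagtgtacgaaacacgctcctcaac

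Sequence that satisfies the rule was more densely occupied than most of the genome and less so than divergent promoters. Bases meeting the rule covered 11.0 Mb, or 11.0% of the genome, and held 155 summits per Mb. The density was 567 per Mb between divergent 5′ ends, 32.4 inside genes and 57.9 in the remaining intergenic sequence. The class was thus sparser per base than divergent promoters and larger in number, because it covers more sequence. The same order held for the signal of each peak, a value of the authors with no stated scale: its median was 137 in the class (25th and 75th percentiles 88.9 and 248), 231 between divergent 5′ ends, 94.4 inside genes and 101 elsewhere. Of the 100 strongest summits of the list, 31 were upstream of 1 gene and 59 were divergent. The class held 32.9% of the summed signal.

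The strongest summits included 7 ribosomal protein genes and 2 genes of the respiratory chain among the first 20. The summit at rpl-3, a gene for a large-subunit ribosomal protein, had a signal of 10359 in the first replicate, 8787 in the second and 19064 in the thresholded list. That upstream of cox-5A, a cytochrome c oxidase subunit, had 6937, 5387 and 12289. The summit upstream of lin-9 had 3269 in replicate 1 and 2256 in replicate 2. All 3 were high in both replicates and lay 283, 301 and 171 bp upstream of their genes.

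The other ribosomal genes, by falling signal in the list, were rpl-11.2 (4909), rpl-6 (3866), rpl-29 (3306), rps-17 (3009), rpl-38 (2668) and rpl-35 (2637). The second respiratory gene was cox-5B (3856), which encodes another cytochrome c oxidase subunit. Outside those groups came Y25C1A.8 (6225), serp-1.1 (5087) and cbp-1 (4351), the last of which encodes a CBP/p300 histone acetyltransferase. Genes of secretion and protein quality control were sec-24.1 (3825), cdc-48.1 (3511), a AAA ATPase of protein degradation, and ire-1 (2735), a sensor of unfolded protein in the endoplasmic reticulum. The remaining ones were wdr-46 (4160), unc-16 (3446), mafr-1 (2835), a repressor of RNA polymerase III, and rsp-6 (2808), an SR splicing factor. These 20 carried 21.2% of the signal of the class and the strongest 100 carried 40.7%.

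**Figure D1:**
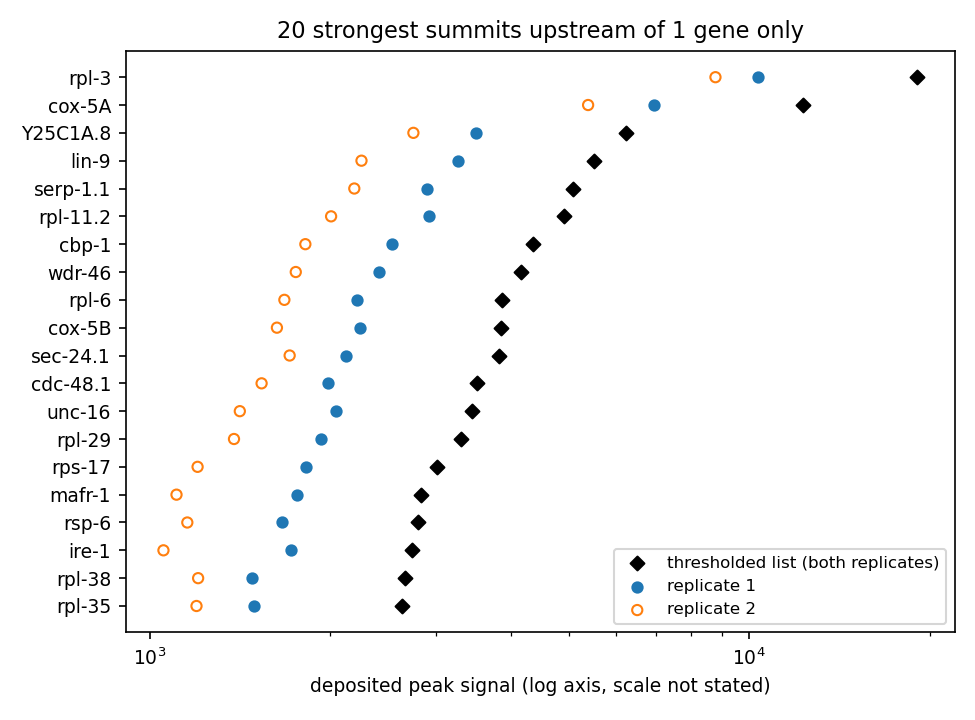
Deposited peak signal (log axis) of the 20 strongest summits upstream of 1 gene only, in the thresholded list and in each replicate. All 20 were higher in replicate 1 than in replicate 2, by 0.24 to 0.71 on the log2 scale, and the order of genes was nearly the same in both.

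At the other end, the 5 weakest members were at fdgt-1 (60.2), R02F2.1 (59.9), gpi-1 (59.9), bet-1 (59.9) and gba-2 (59.9). The summit at bet-1, a bromodomain protein gene, stood at 22.7 in replicate 1 and 31.7 in replicate 2. The summit at gba-2, which encodes a glucosylceramidase, had 32.3 and 24.8. These values are the floor of the thresholded list, and the replicates did not order the pair alike.

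Members were matched in both replicates as often as the whole list, which had been chosen for reproducibility. A summit within 200 bp was present in both replicate lists of 30000 regions for 1679 members (98.0%; 97.2 to 98.6), against 98.0% of all 5944, in replicate 1 alone for 19 and in replicate 2 alone for 16. The median signal at matched summits was 82.6 in replicate 1 and 58.1 in replicate 2. Replicate 1 was higher at 1460 of them (87.0%), with a median log2 difference, replicate 1 minus replicate 2, of 0.48 ± 0.56 (SD over summits). This offset was shared with divergent summits, where the median was 0.48 ± 0.38. Across members, the replicates gave a Spearman's rho of 0.852 and, on log2 signal, a Pearson's r of 0.895. Peaks are not independent replicates, and these values describe the lists.

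Agreement depended on signal. Members were split by signal in the thresholded list into 4 groups of 428 or 429. In the strongest group, 99.5% ranked among the 5944 strongest regions of both replicates. The share was 97.9% in the second group, 91.8% in the third and 29.4% (25.1 to 33.9) in the weakest. Over the class it was 79.6% (77.7 to 81.5), above the 73.2% (72.0 to 74.3) of the whole list and below the 92.3% (90.1 to 94.1) of divergent summits, which had higher signal. The weakest group was thus held in the thresholded list mostly without top rank in both replicates. The cut of 5944 is the length of that list, and the weakest group stands at its lower end. A low share there, and a higher one among summits of higher signal, is therefore partly set by the definition. The SD of the log2 difference between replicates, which uses no such cut, was 0.32 in the strongest group and 0.77 in the weakest. From the strongest group to the weakest, Spearman's rho between replicates was 0.885, 0.246, -0.208 and -0.410. The 0.852 over all members is thus not the agreement within a group. Each group is a slice by a signal made from both replicates, so these values are partly set by the definition too.

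**Figure D2:**
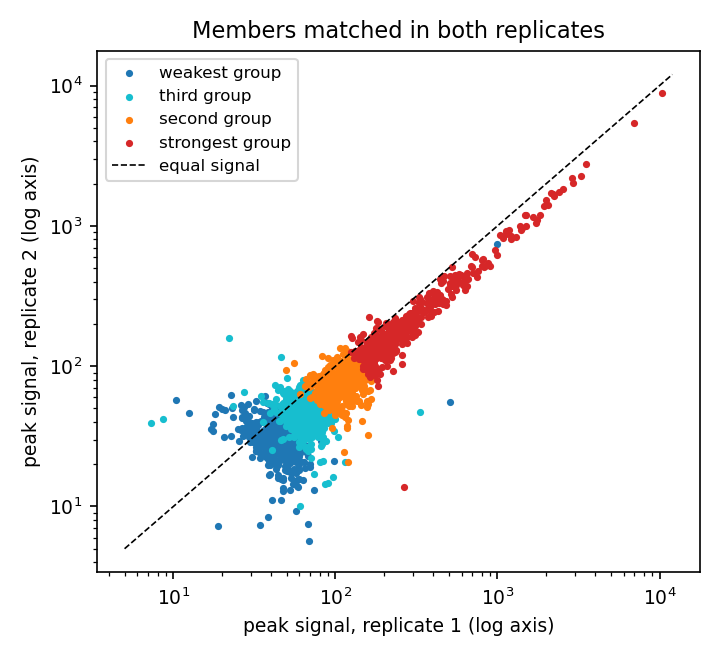
Peak signal in replicate 1 and replicate 2 (both log axes) for the 1679 members matched in both, coloured by the 4 groups of signal in the thresholded list, with equality dashed. Points lie below the dashed line at 1460 members, and the scatter widens toward low signal.

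The 3 members most unequal between replicates in each direction included some with a second region in reach or a region shared with another summit. How many of all members had a second region in reach was not counted, and the cause of these differences was not tested. The summit upstream of hlh-11, which encodes a basic helix-loop-helix factor, was paired with 263 in replicate 1 and 13.7 in replicate 2, a log2 difference of 4.26. A second region of replicate 2, with a signal of 125, lay 101 bp from it, hardly farther than the one paired at 99 bp. The summit of ttm-1, at -2.43, likewise had a second region of replicate 1, with 65.9, at 106 bp. At epn-1, an endocytic epsin gene, the summit 602 bp upstream was paired with 22.2 and 160, a log2 difference of -2.85, but the same region of replicate 2 was paired with the stronger summit of that gene, which had 211 in replicate 1. F23C8.5, at 3.61, shared its region of replicate 1 with another summit in the same way, and 9 members in each replicate were paired with a shared region. With a single region within 200 bp in each replicate, wbp-11 had 67.9 and 7.47 and F32B5.6 had 10.3 and 57.8, at list signals of 77.6 and 66.8. The only GATA factor gene with a member, elt-2, the main regulator of intestinal identity, was unmatched in replicate 1 and had 59.6 in replicate 2.

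Summits gathered in a band 100 to 300 bp upstream of the annotated gene start. The median distance was 253.5 bp (25th and 75th percentiles 141 and 468), whereas the median over all bases that meet the rule was 427 bp. Within 300 bp lay 992 members (57.9%; 55.5 to 60.2), against 36.7% of those bases. Per Mb of qualifying sequence, density was 156 at 1 to 100 bp, rose to 341 at 101 to 200 bp, was 249 at 201 to 300 bp and 171 at 301 to 400 bp. From 401 bp outward it stayed between 68.5 and 105. The densest 100 bp therefore did not touch the gene start.

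Strong summits were more tightly placed than weak ones. In the strongest group the median distance was 228 bp and 66.0% (61.3 to 70.4) lay within 300 bp. In the weakest group these were 272 bp and 53.1% (48.3 to 58.0). Between 801 and 900 bp there were 3 summits of the strongest group and 22 of the weakest. The strongest member far from its gene was that of cbp-1, 909 bp upstream, and a second summit of the same gene lay 142 bp upstream with a signal of 174.

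**Figure D3:**
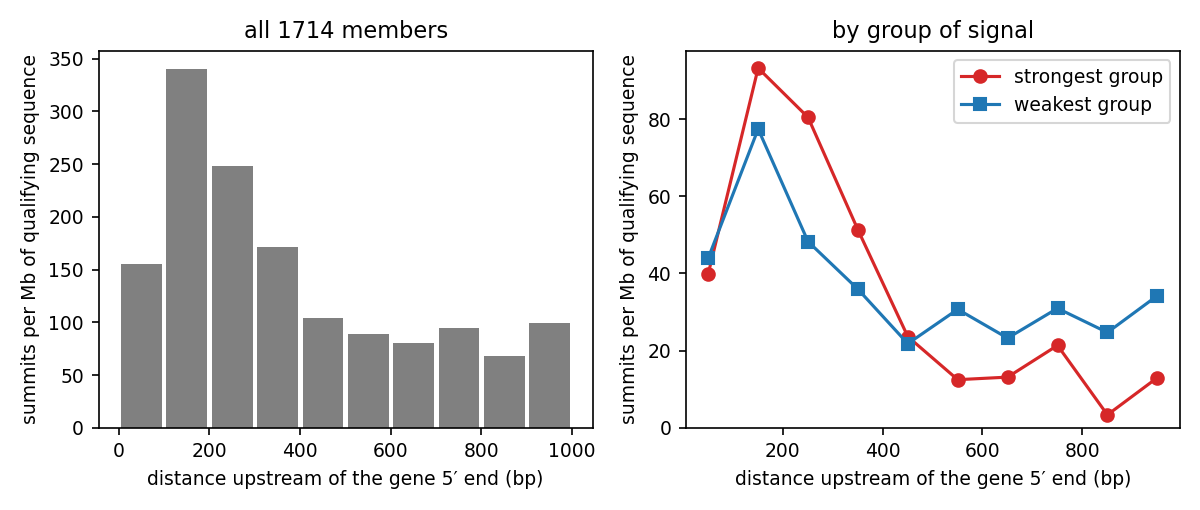
Summits per Mb of qualifying sequence in 100 bp bins of distance upstream of the gene 5′ end, for all 1714 members (left) and for the strongest and weakest groups of signal (right). The peak is at 101 to 200 bp (341 per Mb for all), and beyond 500 bp the weakest group is the denser.

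Divergent summits were nearer still to the closer of their 5′ ends, with a median of 149 bp and 87.6% within 300 bp. Their gaps between genes are bounded by the rule, so part of that difference is set by the definition of the classes. The nearest members to a gene start were those of D1069.3 and F02E9.7 at 1 bp and of ral-1, a Ral GTPase gene, at 2 bp. At the outer limit, fbxb-58 (signal 639), ppk-1 (90.2) and tbx-2 (66.0) had summits at exactly 1000 bp, and B0041.5 (81.0), cec-1 (242) and clp-1 (102) were left out at 1001, 1002 and 1002 bp.

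The annotated start itself differed between genes with and without a member. The nearest downstream genes of the members numbered 1639, or 10.7% of the 15360 protein-coding genes that had any sequence meeting the rule. Of these 1639 genes, 838 (51.1%) had AG as the last bases before the annotated 5′ end, the dinucleotide that ends a splice acceptor, against 25.2% of the other 13721. The longer acceptor word TTTCAG preceded 26.5% and 10.6%. Annotated genes that began directly with ATG, with no 5′ untranslated sequence, made up 8.97% and 27.3%. Genes nearest to divergent summits were like those of the members in these traits, with AG before 43.8%, TTTCAG before 22.4% and a start at ATG in 8.30%. The split also went with distance: the median was 271.5 bp for the 878 members whose gene had AG before its start and 211.5 bp for the other 836. The part of genes annotated without 5′ untranslated sequence in the other shares was not tested.

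The assigned genes were also longer, with a median of 2832 bp against 2036 bp. A gene on the same strand began within 500 bp of the 3′ end for 441 of them (26.9%; 24.8 to 29.1), the spacing typical of worm operons, against 15.8% (15.1 to 16.4) of the other eligible genes. For genes nearest to divergent summits it was 31.3%. Being the downstream gene of such a pair was slightly less frequent, at 19.2% (17.3 to 21.1) against 23.0%. Operons themselves were not annotated here, and this counts spacing alone.

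On the far side of the summit, the 3′ end of another gene lay behind 1115 members (65.1%; 62.7 to 67.3) and a distant 5′ end behind 599. Qualifying bases were divided almost alike, with 62.4% facing a 3′ end, and the densities were 162 and 145 summits per Mb. Close to that 3′ end, the members were more frequent than the bases: 422 of the 1115 (37.8%) lay within 300 bp of it, against 20.03% of qualifying bases of that kind. In 343 cases (30.8%) the 3′ end was nearer than the 5′ end the summit was assigned to, against 23.8% of bases. The bases were not matched to the members in distance to the 5′ end, near which members gathered. The summits of rpl-11.2 and wdr-46, for example, lay 251 and 227 bp from the gene end behind them and 362 and 174 bp from their own genes.

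Most genes had 1 member summit, 71 had 2 and 2 had 3. The strongest of the latter was eel-1, which encodes a HECT ubiquitin ligase, with summits 352, 576 and 814 bp upstream. Their signals were 1128 and 916, then 968 and 668, then 271 and 192 in replicates 1 and 2, so the order by distance was also the order by signal in both replicates. At mstr-1 the 3 list signals were 218, 136 and 113, and the farthest, at 987 bp, was the one of middle height.

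Per Mb of qualifying sequence, member density ranged from 81.6 on V and 129 on X to 274 on III, with 140 on IV, 174 on II and 238 on I. X stood apart in its mix of classes rather than in this density. It held 268 members and 25 divergent summits, whereas each autosome held 229 to 334 members and 105 to 187 divergent summits. These are counts, and the length of divergent sequence on each chromosome was not measured. Median signal ran from 121 on X to 152 on II.

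Some members lay beside small non-coding RNA genes as well, and position alone cannot assign such a summit to 1 of the genes. A gene for a tRNA, snoRNA, snRNA or microRNA lay within 200 bp of 56 members (3.27%; 2.48 to 4.22). By class, 24 were near a tRNA gene (1.40% of members, against 0.305% of qualifying bases), 19 near a snoRNA gene (1.11% against 0.205%), 10 near an snRNA gene (0.583% against 0.0735%) and 3 near a microRNA gene (0.175% against 0.122%). Pseudogenes and piRNA genes went the other way, with 0.292% of members against 4.45% of bases and 0.525% against 3.02%.

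The strongest of these summits were at genes for SL2 spliced leader RNAs, the short RNAs joined to downstream mRNAs of operons. The summit assigned to egg-5 but within 200 bp of sls-2.4 had 651 in replicate 1 and 373 in replicate 2. That assigned to H41C03.3 and near sls-2.1 had 536 and 415. Among tRNA genes the strongest was at sor-3 (208 and 99.5), and among snoRNA genes at F59C6.18 (413 and 276), with cmtr-1 (368 and 283) next. The strongest near a microRNA gene was at sph-1 (92.7 and 65.2). All of these were higher in replicate 1, as were most members.

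The words capitalised above were more frequent at the summits than around them. AGACGCAG occurred within 50 bp of 197 member summits (11.5%; 10.02 to 13.1). In windows of the same length it was found in 0.934% of qualifying positions and, at 200 to 300 bp from the summits, in 0.292% on the side away from the gene and 0.525% on the side toward it. GAGAGA occurred at 410 summits (23.9%; 21.9 to 26.0), against 6.25% of qualifying positions and 6.13% and 6.71% in the flanks. Both words therefore stood at the summit and were near the level of qualifying sequence or below it 200 bp away. They were chosen with earlier results of these data known, so their excess at the summits is a description and not an independent finding. At divergent summits the shares were 6.77% (5.06 to 8.82) and 16.5% (13.9 to 19.4), lower than in the class in both cases, with no test of the difference.

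**Figure D4:**
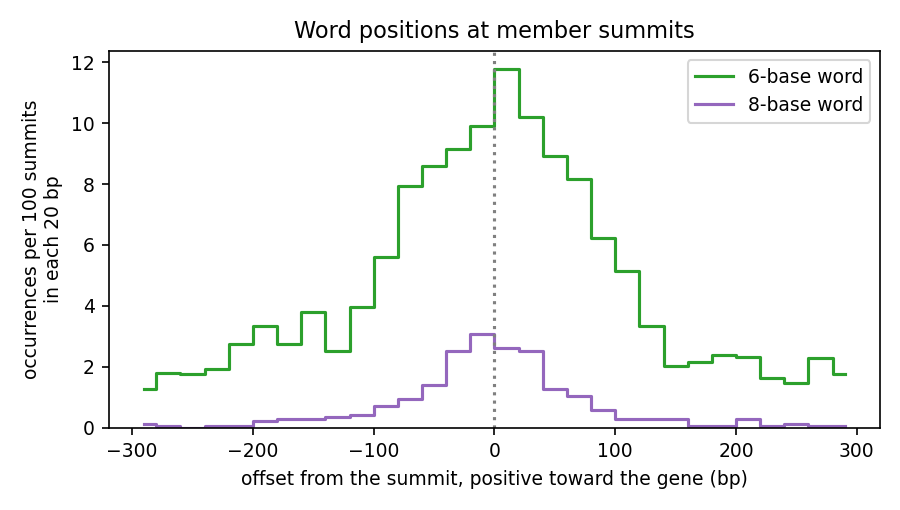
Occurrences per 100 member summits, in 20 bp bins of offset from the summit (positive toward the gene), of the 6-base word GAGAGA and the 8-base word AGACGCAG on either strand. The 6-base word reaches 11.8 per 100 summits in the bin next to the summit and the 8-base word 3.09, and both fall away within about 150 bp on each side.

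The words had a strand. Of the 196 summits with AGACGCAG on 1 strand only, 75 (38.3%; 31.4 to 45.5) had it on the strand of the gene and 121 on the other. For GAGAGA the counts were 129 (33.0%; 28.3 to 37.9) and 262. CGTCTC, which partly overlaps the complement of AGACGCAG, lay within 50 bp of 17.6% of members against 2.93% of qualifying positions, and leaned the other way, with 186 of 296 on the strand of the gene. Read on that strand, the more frequent form was thus the one rich in C and T, as in umps-1 and sec-61.G among the sequences printed. Most of the printed windows with AGACGCAG went the other way and carried that word on the strand of the gene.

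Neither word showed a steady trend with the height of the peak. AGACGCAG was found at 12.1% of the strongest group and 9.79% of the weakest, with overlapping intervals. From the strongest group to the weakest, GAGAGA was at 17.0%, 30.8%, 25.5% and 22.4%. Both words were present at 89 members, AGACGCAG alone at 108 and GAGAGA alone at 321. The remaining 1196 (69.8%) had neither, and these included 16 of the 20 strongest. Their median signals in the replicates, 82.5 and 58.5, were close to those of members with AGACGCAG alone, 85.1 and 58.0.

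Other words did differ between the strongest and the weakest group. GCAAACAC occurred at 10.3% (7.55 to 13.5) of the strongest group and 2.33% (1.12 to 4.24) of the weakest, against 0.522% of qualifying positions, and at 11.1% of divergent summits. TGATAA, a form of the site bound by GATA factors, went the other way, with 2.33% of the strongest group, 16.6% (13.2 to 20.4) of the weakest and 10.5% of qualifying positions. TATAAA and TTTCAG were at 5.66% and 6.59% of members against 13.7% and 17.6% of qualifying positions. CACGTG, a palindrome known as the E-box, was at 4.96% against 1.59%.

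A search chosen after the data were seen took 10 words of 6 bases from the odd-ranked members of the strongest group and read them in the even-ranked ones. All 10 contained CG except GCAAAC. The word GACGCA, which led in the odd-ranked members, was at 21.0% of 214 even-ranked strong summits, 2.10% of their flanks and 11.2% of 215 even-ranked weak summits. ACGCGC was at 21.96%, 2.10% and 4.65%, AACGCG at 21.5%, 1.64% and 3.72%, and GGCGCA at 18.2%, 1.87% and 3.26%. Most of the summits with GACGCA had it with AGACGCAG in the window, a word already known. GACGCA without AGACGCAG was at 19 of the 214 strong summits (8.88%; 5.43 to 13.5) and 5 of the 215 weak ones (2.33%; 0.759 to 5.34). At least 1 of the 10 was present at 162 of the 214 strong summits (75.7%; 69.4 to 81.3), at 72 of the 215 weak ones (33.5%; 27.2 to 40.2) and in 18.7% of the flanks of the strong ones. All 12 windows printed above hold at least 1 of them, but this was largely set by how the windows were chosen. The first 6 were picked for AGACGCAG, which contains GACGCA. All 12 belong to the strongest group, and some of those members were among the ones used to choose the words.

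Base composition moved with these words. The 100 bp at member summits had a GC content of 44.4% ± 8.0 (SD over summits), compared with 33.1% ± 7.9 and 35.8% ± 8.5 in the flanks away from and toward the gene and 33.7% in all qualifying sequence. It was 47.9% ± 7.1 in the strongest group and 40.7% ± 7.7 in the weakest, while their flanks were alike at 33.0% and 32.7% on the side away from the gene. The part of base composition in the word shares was not tested.

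The genes downstream were unevenly drawn from functional classes. The 10.7% of eligible genes with a member summit is the background against which the gene lists are read. For divergent summits the share was 28.1% of 5279 genes. Of the 41 lists, 19 had an exact interval above 10.7%, 6 below and 16 across it. The intervals take genes as independent, which neighbouring genes are not.

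**Figure D5:**
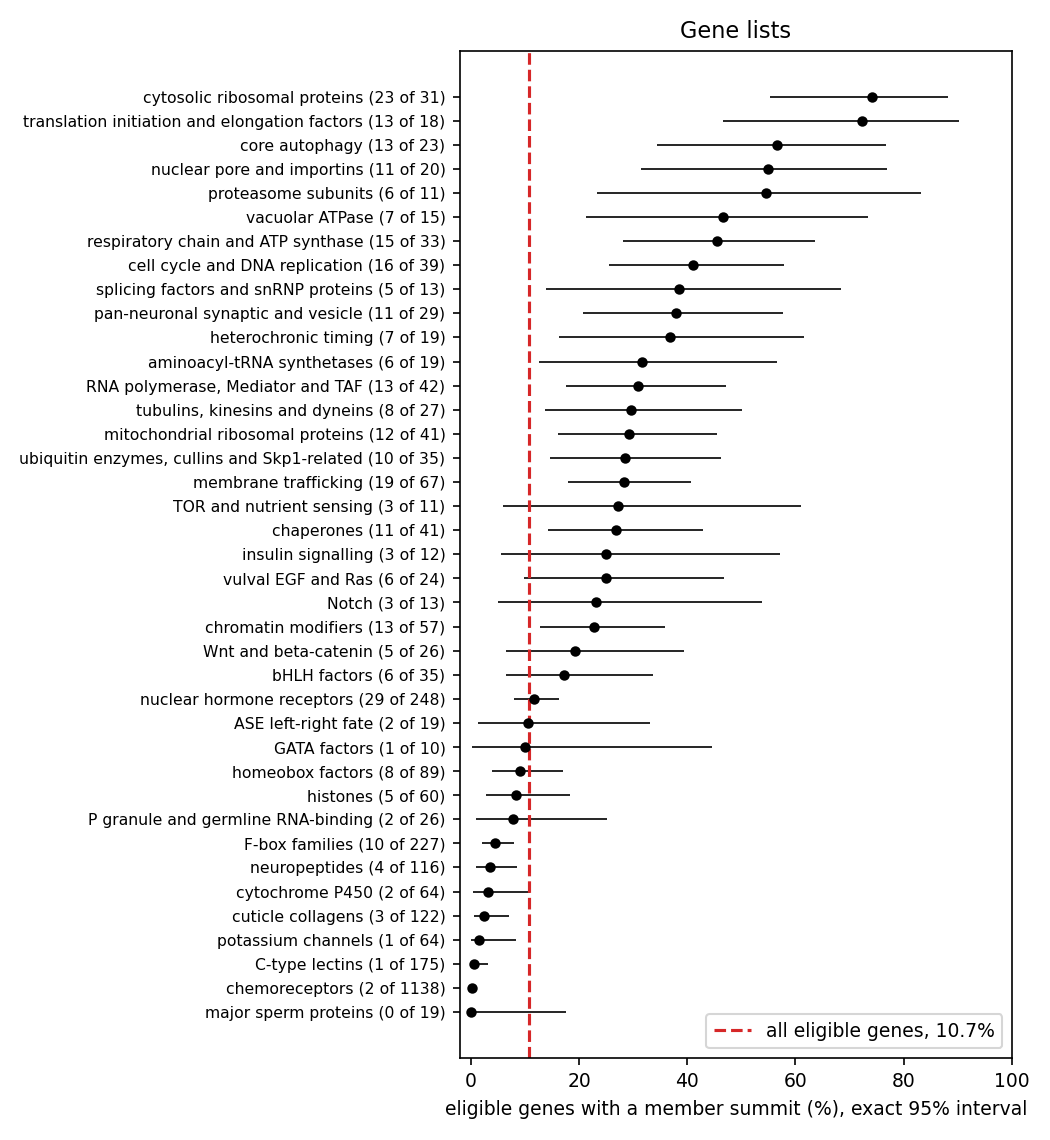
Percent of eligible genes of each list with a member summit, with exact 95% intervals, for lists of at least 10 eligible genes. The dashed line is the share over all eligible genes, 10.7%; ribosomal proteins (74.2%) stand at the top and major sperm proteins (0 of 19) at the bottom.

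Protein synthesis came first. Of 31 eligible genes for cytosolic ribosomal proteins, 23 (74.2%; 55.4 to 88.1) had a member summit, and of 18 for translation initiation and elongation factors, 13 (72.2%; 46.5 to 90.3). The leading factor genes were ife-3, which encodes a cap-binding eIF4E protein (signal 804 and 575 in replicates 1 and 2), and eif-3.C, a subunit of eIF3 (597 and 450). Mitochondrial ribosomal proteins were lower in this class at 12 of 41 (29.3%), led by mrpl-19 (351 and 242) and mrpl-28 (316 and 246). At divergent summits they had 24 of 28 eligible genes (85.7%), beside 44 of 51 (86.3%) for cytosolic ribosomal proteins. Of the aminoacyl-tRNA synthetase genes, 6 of 19 had a member summit, with kars-1 (156 and 92.6) and cars-1 (125 and 99.5), the lysine and cysteine enzymes, at the top.

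Genes of energy supply and of protein and membrane turnover were also above the background. The respiratory chain and ATP synthase had 15 of 33 (45.5%; 28.1 to 63.6) and the vacuolar ATPase, the proton pump of lysosomes, 7 of 15, with vha-15 (296 and 196) and vha-12 (208 and 139) leading. Core autophagy genes had 13 of 23 (56.5%; 34.5 to 76.8). Of these lgg-2, a member of the Atg8 family (336 and 223), and epg-7 (266 and 211) were strongest. The proteasome had 6 of 11, led by the genes of its regulatory lid and ubiquitin receptor, rpn-11 (469 and 439) and rpn-13 (837 and 517). Ubiquitin enzymes and cullins had 10 of 35, including rbx-1 (266 and 190), the RING subunit of cullin ligases, and ubc-7 (228 and 207).

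In the nucleus, pore and importin genes had 11 of 20 (55.0%; 31.5 to 76.9), with imb-3 (551 and 378) and ima-2 (310 and 259), both nuclear import receptors, strongest. Splicing factors had 5 of 13, where rsp-6 (1663 and 1155) was followed by the Sm protein gene snr-4 (201 and 193). RNA polymerase, Mediator and TAF genes had 13 of 42, led by rpb-11 (395 and 300) and taf-12 (215 and 180). Chromatin modifiers had 13 of 57 (22.8%; 12.7 to 35.8), where cbp-1 (2536 and 1818) stood far above dpy-30 (627 and 347), a subunit of histone H3 methyltransferase complexes. Cell cycle and replication genes had 16 of 39 (41.0%; 25.6 to 57.9). The list took in cdc-48.1 by its name, and the next was mcm-4 (457 and 304), a subunit of the replicative helicase.

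The cell's structural and folding genes were above the background too. Chaperones had 11 of 41, led by hsp-3 (482 and 290), a BiP homologue, and bag-1 (403 and 346). Membrane trafficking genes had 19 of 67, where sec-24.1 (2126 and 1712) and sec-61.G (695 and 512) came first. Tubulins and motors had 8 of 27, with tba-2 (328 and 309), an alpha tubulin, and klp-13 (173 and 140), a kinesin, at the top. Of these 3 lists each interval began above 10.7%.

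Lists of neuronal and sensory genes went apart. The pan-neuronal list of synaptic and vesicle genes had 11 of 29 (37.9%; 20.7 to 57.7), at modest signal: snb-1, the synaptobrevin gene, had 142 and 99.96 and rgef-1 had 101 and 70.5. By contrast, neuropeptide genes had 4 of 116 (3.45%; 0.947 to 8.59), with ins-39 (333 and 301) and flp-23 (57.0 and 57.9) strongest, and potassium channels 1 of 64, kvs-3 (58.9 and 46.6). Chemoreceptor genes, the largest list, had 2 of 1138 (0.176%; 0.0213 to 0.633), sre-23 (85.7 and 84.2) and srv-1, which was matched in replicate 1 only. C-type lectins had 1 of 175, clec-126, whose summit also lay within 200 bp of tRNA genes.

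Cuticle collagens had 3 of 122 (2.46%; 0.510 to 7.02), with col-185 (72.7 and 80.4) and sqt-2 (61.8 and 46.6) strongest, and F-box families 10 of 227 (4.41%; 2.13 to 7.95), with fbxb-58 (341 and 285) and fbxa-128 (145 and 67.4). Major sperm proteins had 0 of 19, a count under which a share of up to 15.8% is still possible. Cytochrome P450 genes had 2 of 64, of which cyp-43A1 had 48.8 and 48.2 and cyp-25A2 was matched in replicate 2 only. The list of P granule and germline RNA-binding genes, made by symbol, had 2 of 26. They were puf-9 (441 and 415), which is also on the heterochronic list, and oma-2 (26.3 and 52.7). Histone genes had 5 of 60, with his-37 (649 and 462) and his-24 (94.8 and 74.2) strongest. Several histone and F-box genes share a sequence or a symbol, so these counts are less certain than the others.

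Transcription factor families had intervals that spanned the background. Nuclear hormone receptors had 29 of 248 (11.7%; 7.97 to 16.4), led by nhr-49, a regulator of fat metabolism (165 and 127), and nhr-1 (174 and 107). Homeobox genes had 8 of 89 (8.99%; 3.96 to 16.9), where ceh-20 (161 and 148), a Pbx factor, and the Hox gene nob-1 (101 and 52.9) came first. That list was made by name and includes ttx-7, which is not a homeobox gene. The bHLH list had 6 of 35, with hlh-11 and then hlh-30 (123 and 57.5), the worm TFEB, and GATA factors had 1 of 10.

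Developmental pathways gave small counts. Heterochronic timing genes had 7 of 19 (36.8%; 16.3 to 61.6), including puf-9 and lin-28 (192 and 124), an RNA-binding regulator of larval timing. Wnt genes had 5 of 26, led by wrm-1 (123 and 127) and sys-1 (116 and 85.5), both beta-catenins, and vulval EGF and Ras genes 6 of 24, led by cnk-1 (148 and 111) and eor-1 (103 and 105). Notch genes had 3 of 13, with sel-10 (152 and 105) and sup-17 (64.5 and 72.4), and insulin signalling genes 3 of 12, with daf-16, the FOXO factor (146 and 98.2), and akt-2 (123 and 81.1). TOR and nutrient sensing genes had 3 of 11, hlh-30, flcn-1 (121 and 72.4) and daf-15, the Raptor gene. Of these, the heterochronic list alone had an interval wholly above 10.7%.

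The microRNA machinery had 3 of 7, including pash-1 (301 and 202), a partner of Drosha, and cgh-1 (250 and 161), and the DREAM complex had lin-9 alone of 5. At divergent summits the microRNA machinery had 4 of 6 eligible genes and the DREAM complex 4 of 5. Of the ASE left-right fate genes, the setting for which LSY-2 is known, 2 of 19 had a member summit (10.5%; 1.30 to 33.1). They were lin-49, a bromodomain protein gene, with 159 and 96.3 at 351 bp, and unc-37, the Groucho corepressor gene, with 112 and 69.5 at 219 bp. Their share was next to the background of 10.7%.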

How the data were processed

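The authors deposited peak lists from ChIP-seq of LSY-2 in 2 replicates, with a signal value per peak, whose scale is not stated in the labels or headers, and a summit offset, the other column used. Per the file headers and labels, the lists are on the ce11 build, which has the WBcel235 sequence. Not given in the sources used here: aligner, peak caller and the irreproducible discovery rate threshold of the main list. Each replicate list held 30000 regions, background included. Depth per library is unknown.

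Each summit was placed against the 19973 protein-coding genes of Ensembl release 115, and a member was assigned to the nearest gene downstream (49 members reached a second gene on the same strand). All bases of the genome were classed by the same rule to give qualifying sequence, and a gene was eligible if it was the nearest downstream gene of any such base. In 2 members the deposited summit lay beyond the end of the peak, and they were kept. As a check of the sequence, 99.9% of 31805 annotated start codons read ATG. Replicate summits were matched within 200 bp. Words were counted on both strands in the 100 bp at a summit and in 100 bp beginning 200 bp away on either side. The windows printed were chosen among the 1397 members off chromosome I, so stronger summits with a word may lie on that chromosome.

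With 1 group of 2 replicates no condition could be tested, so that shares are given with exact (Clopper-Pearson) 95% intervals, which cover counting error only, and a count of 0 with the limit from 3 counts. Nothing in the labels says that the replicates came from separate cultures beyond calling them biological. The members, the words AGACGCAG and GAGAGA and the gene lists were chosen with earlier results of these data known. The text names the genes of the 20 strongest members, the 2 strongest of each list, the 3 most unequal between replicates each way, those nearest and farthest by distance, the 5 weakest, those with most summits, the strongest at each kind of small RNA gene and the ASE genes. Lists were made by gene symbol. Alternatives were transcript 5′ ends, windows of 500 and 2000 bp, the stronger 2972 peaks of the list, each replicate alone, 1 summit per interval, word windows of 200 bp and other matching rules. Leaving out summits near small RNA genes was added after seeing the data. The classing was checked on made-up genes. Scripts ran in Python 3.11.15 with pandas 2.3.3, numpy 2.4.6, SciPy 1.17.1 and matplotlib 3.10.9.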

Additional observations from a re-analysis of the deposited data

How the results depend on the processing

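Each replicate alone gave like totals, though not the same summits, since 79.6% of members were among the 5944 strongest regions of both. Taking as many of the strongest regions of 1 replicate as the thresholded list holds, the number of such summits was 1707 to 1709, their density 154.8 to 155 per Mb, the median distance 250.0 to 258 bp, the share within 300 bp 57.3% to 58.0%, the share of genes 10.6% to 10.7%, AGACGCAG 10.1% to 10.8% and GAGAGA 23.6% to 24.9%. With a window of 500 bp, the density was 215 per Mb, the median distance 189 bp, the share within 300 bp 76.1%, the share of genes 8.80% and GAGAGA 21.99%. With 2000 bp these were 121, 357 bp, 43.8%, 12.4% and 26.2%. Distances cannot exceed the window; the cause of the other shifts was not tested. The stronger 2972 peaks of the list, which hold fewer summits by construction, gave 1005 members, 91.2 per Mb, a median of 245 bp, 60.5% within 300 bp, 6.38% of genes and AGACGCAG at 12.1%. Transcript 5′ ends gave 155.75 per Mb, and 1 summit per interval 154.4. Without summits near small RNA genes, an alternative chosen after seeing the data, there were 151 per Mb, 58.6% within 300 bp and 10.4% of genes. In word windows of 200 bp, AGACGCAG was at 15.3% and GAGAGA at 37.7%. Both replicates matched 94.4% of members within 100 bp and 98.6% by overlap. The other 28 of the 60 alternatives moved by no more than the spread between replicates or, for a count, by less than 1.5 times. Since the replicate values of density and of the share of genes nearly coincide, even small shifts exceed that spread. No paired analysis was possible because there was 1 group. Depth is unknown, so weak summits cannot be weighed by reads.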
